A study of Arabidopsis thaliana with 20 samples.

Results

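The expansin family of Arabidopsis thaliana was followed through drought in wild-type and bam1 plants, in the whole leaf and in epidermal peels enriched for stomata. The family was taken as 34 annotated loci, taken by their locus identifiers with no limit on any measured value. These were 25 alpha-expansins (EXPA), 5 beta-expansins (EXPB), 3 expansin-like A genes (EXLA) and 1 expansin-like B gene (EXLB). On the array 33 of them had at least 1 probe, 43 probes in all, out of 25410 loci with a probe. A gene was tested when all arrays of 1 group or more had a probe of it well above background, which held for 21 expansins out of 19134 loci, and its brightest tested probe stood for it. Genes of the family were singled out by the study on these same arrays, so their direction here is not independent evidence for it.

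Expansins are proteins of the plant cell wall that loosen the contacts between cellulose and the matrix around it without cutting the polymers, so that the wall yields to turgor and the cell can enlarge. Alpha- and beta-expansins are known to do this in wall extension assays, and such an activity has not been established for the expansin-like A and B proteins, which share their domains. In leaves the family is known for growth by cell expansion, and EXPA1 is also known from guard cells, whose walls deform each time the stomatal pore opens or closes.

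The groups were leaf or stomata, Col-0 (the wild type) or bam1, and control or drought. The bam1 plants were 1 T-DNA insertion line that lacks BAM1, a beta-amylase of starch breakdown, and the untreated bam1 plants carried the insertion too. Drought was mild and lasted 5 days, in plants that the age labels give as 5 weeks old and the treatment notes as 6 weeks old. Each replicate pooled 5 to 8 plants, and the stomata samples were epidermal fragments retained on a mesh after blending, without sorting of cells. There were 3 arrays for bam1 leaves with and without drought and for untreated Col-0 in leaf and stomata, and 2 for each of the other 4 groups.

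The median processed signal of an array lay between 163 and 576, 63.2% to 75.4% of spots were well above background, and 0 spots were saturated. Replicates of a group correlated at r of 0.971 to 0.988 across probes. All 7 guard cell markers tested were higher in stomata than in leaves of Col-0 controls (median log2 difference 3.72), while 0 of the 5 mesophyll markers were called in that comparison (median difference 0.09). Of 7 vascular markers, 2 were higher there (SUC2 and APL, of the phloem) and 2 lower (XCP1 and SWEET12), and GL2, a trichome marker, was higher. The BAM1 probe gave log2 signals of 10.90 to 13.97 on all Col-0 arrays but 1 and of 6.45 to 9.71 on the bam1 arrays. On 1 stomata array, labelled Col-0 drought replicate 2, it gave 7.81, which goes against that label. Several results on stomata of drought-stressed Col-0 are therefore also given without this library, which is called the mismatched array. The others include it. Results without the mismatched array rest on the 1 drought array left in that group. The arrays lay on 6 slides, and each group lay on more than 1 of them. No slide held both control and drought stomata of the same genotype.

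Levels are normalised log2 signals, and a difference of 1 is 2-fold. A gene was called higher or lower when the adjusted p of limma's moderated test, corrected over all tested probes, was under 0.05 and the difference at least 2-fold. Errors of differences are standard errors of that fit. Signals of different probes are not set against each other, because probes differ in brightness. In these bulk samples fewer cells of a type and less RNA per cell cannot be told apart.

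Under drought several alpha-expansins of the leaf fell, EXLB1 rose in both tissues, and EXPA9 rose in stomata of both genotypes. EXPA15 was called higher in stomata of bam1 and rose by less than 2-fold in those of Col-0. The EXLA genes fell in leaves of bam1, and EXLA1 and EXLA3 were also called lower in its stomata. In leaves of Col-0, 5 of the 21 tested expansins were called lower (EXPA1, EXPA3, EXPA6, EXPA8 and EXPA11), beside 3.77% of all tested genes, and 1 was called higher (EXLB1), beside 2.26%. In leaves of bam1, 7 were called lower (EXPA3, EXPA8, EXPA11, EXPB1, EXLA1, EXLA2 and EXLA3), beside 3.87%, and again EXLB1 alone was called higher, beside 1.56%. The drought difference was below 0 for 18 and 17 of the 21 genes, with medians of -0.42 and -0.64, against medians of -0.02 and 0 over all tested genes.

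In stomata of Col-0, 1 expansin was called lower (EXPA1), beside 1.71% of all tested genes, and 2 were called higher (EXPA9 and EXLB1), beside 1.90%. Without the mismatched array 1 drought array is left in this group, so a count of calls would rest on that array alone. In stomata of bam1, 4 were called lower (EXPA8, EXPB1, EXLA1 and EXLA3), beside 3.34%, and 3 higher (EXPA9, EXPA15 and EXLB1), beside 3.08%. The difference was below 0 for 12 of the 21 genes in both, with medians of -0.21 and -0.39, against 0.02 and 0.03 over all tested genes.

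Markers of dividing cells, and single markers of other cell types, moved with the expansins of the leaf. The summed signal of 6 such markers was 3158 to 3531 in control leaves of Col-0 and 1486 to 1891 under drought, and 2639 to 3477 against 1280 to 1438 in bam1. It was 1270 to 1519 against 827 to 1177 in stomata of Col-0 and 1443 to 1826 against 703 to 1059 in stomata of bam1. Of the 6 markers, 3 were called lower under drought in leaves of each genotype, 0 in stomata of Col-0 (2 at an unadjusted p under 0.05) and 2 in stomata of bam1. Between tissues, 5 were called lower in stomata than in leaves of Col-0 controls and 2 in bam1 controls. Of 5 epidermis markers, PDF1 was called lower under drought in leaves of Col-0 and bam1 (-1.81 and -1.44), with a summed signal of the 5 of 35123 to 39161 against 29959 to 31991 in Col-0 and of 29791 to 37687 against 29851 to 35247 in bam1. Of the 7 vascular markers, XCP1 was called lower in leaves of bam1 (-1.34). The median difference of the 7 there was 0.23, with 4 above 0 and 3 below. Their summed signal of 28092 to 38570 in controls overlapped that under drought, 35572 to 36972. Of the 7 guard cell markers 0 were called under drought. Their median differences were -0.29 and -0.41 in leaves of Col-0 and bam1 and -0.57 and -0.24 in stomata. Their summed signal was 19613 to 20804 against 14813 to 15394 in leaves of Col-0. In stomata of Col-0 it was 57789 to 89513 against 55520 to 57585, and in bam1 the ranges overlapped in both tissues. The part of all these markers in the expansin differences was not tested.

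**Figure D1:**
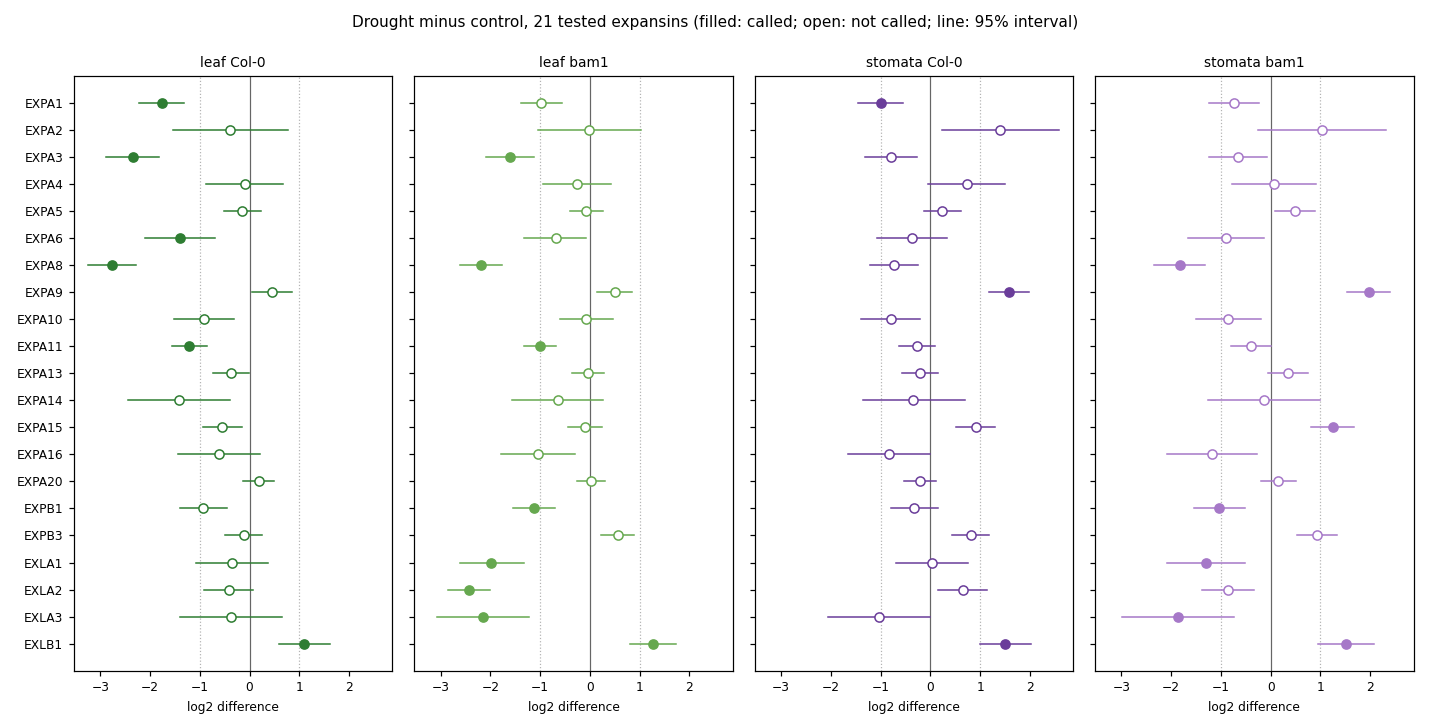
Log2 difference of drought minus control (x axis) for the 21 tested expansins (y axis) in leaf and stomata of Col-0 and bam1. Points are the fitted differences, lines their 95% intervals, filled points are called genes and dotted lines mark 2-fold; EXPA8 at -2.76 in leaves of Col-0 is the lowest point among the called genes and EXLB1 is filled on the right in all 4 panels.

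EXPA8 (AT2G40610), an alpha-expansin of growing shoot tissue, showed the lowest difference among the called expansins in leaves of Col-0. Its log2 signals in leaves of Col-0 were 13.48, 13.97 and 13.95 under control conditions and 10.78 and 11.29 under drought. Leaves of bam1 gave 13.24, 13.47 and 13.54 under control conditions and 11.54, 11.06 and 11.08 under drought. Every drought array lay more than 1.5 log2 units below every control array in both genotypes, so EXPA8 fell by 2.76 ± 0.22 in Col-0 (6.79-fold, adjusted p 8.09e-06) and by 2.19 ± 0.20 in bam1 (4.57-fold, adjusted p 1.5e-05). The other 2 probes of the gene were called lower as well, with differences of -2.54 and -2.42 in Col-0 and of -2.19 and -2.44 in bam1. On slide 1, which held a control and a drought array of Col-0 leaves, the difference was -2.70, and on slide 6 it was -2.46 in bam1.

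In stomata of bam1 EXPA8 gave 13.08 and 13.38 in controls and 11.56 and 11.25 under drought, again without overlap, and fell by 1.83 ± 0.24 (3.55-fold, adjusted p 4.17e-04). With the slide as a fixed term in the fit this difference was -1.54 and not called. Stomata of Col-0 gave 12.81, 13.11 and 13.04 in controls and 11.99 and, on the mismatched array, 12.52 under drought, a smaller gap. Here the difference was -0.73 ± 0.22 (adjusted p 0.0581) and the gene was not called.

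EXPA3 (AT2G37640), also an alpha-expansin, had log2 signals of 10.91, 10.92 and 11.27 in control leaves of Col-0 and of 8.71 and 8.65 under drought. Leaves of bam1 gave 10.78, 10.14 and 10.69 in controls and 8.74, 9.27 and 8.80 under drought. The groups were far apart in both, and EXPA3 fell by 2.35 ± 0.25 in Col-0 (5.10-fold, adjusted p 4.27e-05) and by 1.60 ± 0.22 in bam1 (3.04-fold, adjusted p 3.01e-04). Stomata of Col-0 gave 9.06, 9.29 and 9.57 in controls and 8.21 and 8.82 under drought, and stomata of bam1 gave 8.997 and 9.43 against 8.73 and 8.40. The drought arrays were lower there too, but the differences of -0.79 ± 0.25 (adjusted p 0.0637) and -0.65 ± 0.27 (adjusted p 0.141) were not called. A second probe of the gene was called lower in stomata of bam1 (-1.17, adjusted p 0.0276). Without the mismatched array 1 drought array of Col-0 stomata is left, the one at 8.21.

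EXPA1 (AT1G69530), the alpha-expansin known from guard cells, gave 13.72, 13.82 and 13.57 in control leaves of Col-0 and 11.77 and 12.09 under drought. Control leaves of bam1 started lower, at 12.79, 12.86 and 13.04, and reached 12.00, 11.85 and 11.90 under drought. In Col-0 leaves EXPA1 fell by 1.77 ± 0.21 (3.41-fold, adjusted p 1.13e-04). In leaves of bam1 the groups did not overlap either, but the difference of -0.98 ± 0.19 (1.97-fold, adjusted p 0.0034) stayed under 2-fold, and it was called without leaf bam1 drought replicate 1 or without leaf bam1 control replicate 1.

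In stomata the EXPA1 signals were 14.38, 14.02 and 14.20 in Col-0 controls and 12.75 and 13.65 under drought. The higher of these drought values belongs to the mismatched array. The fall of 1.00 ± 0.21 (2.00-fold, adjusted p 0.00994) lay at the limit of 2-fold, became -1.45 without that array, and was not called without stomata Col-0 control replicate 1 (-0.91), without stomata Col-0 drought replicate 1 (-0.55) or with the slide as a fixed term (-0.99) or a random block (-0.99). Stomata of bam1 gave 13.98 and 13.90 in controls and 13.38 and 13.02 under drought, a difference of -0.74 ± 0.23 that was not called (adjusted p 0.0517).

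EXPA11 (AT1G20190) and EXPA6 (AT2G28950) belonged to the 5 brightest expansin probes. EXPA11 gave 13.91, 13.90 and 14.18 in control leaves of Col-0 and 12.76 and 12.82 under drought, and 13.31, 13.38 and 13.72 against 12.45, 12.32 and 12.61 in bam1. The drought arrays were tightly grouped and below every control array, and EXPA11 fell by 1.21 ± 0.17 in Col-0 (2.31-fold, adjusted p 3.27e-04) and by 1.01 ± 0.15 in bam1 (2.01-fold, adjusted p 5.14e-04). The latter was under 2-fold without leaf bam1 drought replicate 2 (-0.94) or leaf bam1 control replicate 3 (-0.88). In stomata EXPA11 gave 12.27, 12.37 and 12.55 in Col-0 controls against 12.12 and 12.13 under drought, and 12.28 and 12.81 in bam1 controls against 12.15 and 12.14. These differences of -0.27 ± 0.17 and -0.39 ± 0.18 were not called (adjusted p 0.36 and 0.188).

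EXPA6 gave 14.18, 13.95 and 14.35 in control leaves of Col-0 and 12.19 and 13.32 under drought. The drought arrays differed from each other by more than 1 log2 unit, and the fall of 1.40 ± 0.33 (2.64-fold, adjusted p 0.0109) was not called without leaf Col-0 drought replicate 1 (-0.83). Leaves of bam1 gave 13.65, 13.34 and 14.17 in controls and 13.26, 12.78 and 13.04 under drought, which did not overlap but were not called (-0.69 ± 0.29, adjusted p 0.141). Stomata gave 13.55, 14.09 and 14.30 against 13.54 and 13.68 in Col-0 and 14.13 and 14.12 against 13.59 and 12.86 in bam1, with differences of -0.37 ± 0.33 and -0.90 ± 0.36 (adjusted p 0.551 and 0.122).

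EXPA5 (AT3G29030), which acts in growth promoted by brassinosteroids and was also among the 5 brightest, stayed within a narrow range. Over the 20 arrays its main probe lay between 12.16 and 12.92. The 4 drought differences were -0.15 ± 0.17, -0.07 ± 0.15, 0.24 ± 0.17 and 0.49 ± 0.19 in leaves of Col-0 and bam1 and in stomata of Col-0 and bam1, with 95% intervals that together ran from -0.51 to 0.89. None was called.

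EXPB1 (AT2G20750), a beta-expansin, moved with the leaf alpha-expansins in bam1. Its signals were 11.16, 10.79 and 10.34 in control leaves of bam1 and 9.61, 9.70 and 9.62 under drought, and 10.69 and 10.94 against 10.04 and 9.54 in stomata of bam1. No drought array reached a control array, and EXPB1 fell by 1.12 ± 0.20 in leaves (2.18-fold, adjusted p 0.00177) and by 1.03 ± 0.24 in stomata (2.04-fold, adjusted p 0.013). The leaf call was lost without leaf bam1 control replicate 1 (-0.92) and the stomata call without stomata bam1 drought replicate 2 (-0.78) or stomata bam1 control replicate 2 (-0.90). Both were lost with the slide as a fixed term (-1.04 and -0.95). Leaves of Col-0 gave 11.47, 10.99 and 10.96 in controls and 10.27 and 10.16 under drought, and the difference of -0.93 ± 0.22 passed the test (adjusted p 0.0119) but was under 2-fold. Stomata of Col-0 gave 10.51, 10.63 and 10.58 against 10.43 and 10.07, with a difference of -0.32 ± 0.22 (adjusted p 0.417).

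**Figure D2:**
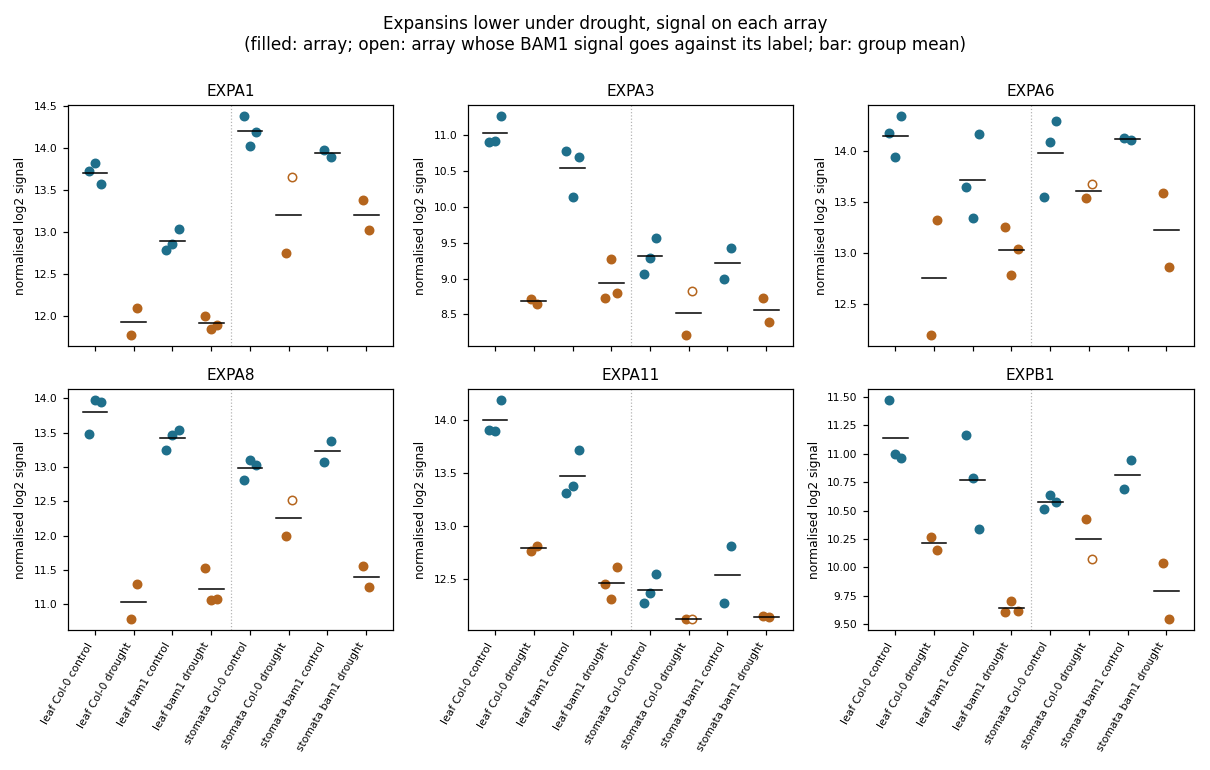
Normalised log2 signal (y axis) of 6 expansins on each of the 20 arrays, by group (x axis). Points are arrays, bars are group means and the open point is the mismatched array; EXPA8 reads 13.48 to 13.97 in control leaves of Col-0 and 10.78 to 11.29 under drought, while the stomata groups of EXPA11 lie within 12.12 to 12.81.

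EXLB1 (AT4G17030), the only expansin-like B gene, rose in all 4 drought comparisons. Its signals in leaves were 11.55, 11.66 and 11.80 in Col-0 controls and 13.00 and 12.54 under drought, and 11.93, 11.74 and 11.82 in bam1 controls against 13.08, 13.28 and 12.94. In stomata they were 13.32, 13.25 and 13.22 in Col-0 controls and 15.30 and 14.24 under drought, and 13.44 and 13.58 in bam1 controls against 14.80 and 15.26. Drought arrays lay above control arrays in every tissue and genotype. The rise was 1.10 ± 0.24 in leaves of Col-0 (2.15-fold, adjusted p 0.00715), 1.27 ± 0.22 in leaves of bam1 (2.41-fold, adjusted p 0.00139), 1.50 ± 0.24 in stomata of Col-0 (2.84-fold, adjusted p 0.00197) and 1.52 ± 0.26 in stomata of bam1 (2.86-fold, adjusted p 0.00221).

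The rise of EXLB1 in stomata of Col-0 was 2.03 without the mismatched array and 0.97 without drought replicate 1, which ended the call. In leaves of Col-0 the call was lost without drought replicate 1 (0.87). With the slide as a fixed term the calls in leaves (0.85) and stomata (1.48) of bam1 were lost. On slides 1 and 6, within which leaf control and drought arrays could be paired, the differences were 1.45 in Col-0 and 1.12 in bam1. A second, dimmer probe was called higher in 3 of the 4 comparisons and not in leaves of Col-0 (1.04, adjusted p 0.0637).

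EXPA9 (AT5G02260) and EXPA15 (AT2G03090), both alpha-expansins, had higher signals under drought in stomata. EXPA9 gave 9.09, 8.98 and 8.90 in stomata of Col-0 controls and 10.73 and 10.42 under drought, and 8.59 and 8.79 in bam1 controls against 10.58 and 10.74. The groups were separated by more than 1 log2 unit, and EXPA9 rose by 1.58 ± 0.19 in Col-0 (2.99-fold, adjusted p 2.39e-04) and by 1.97 ± 0.20 in bam1 (3.92-fold, adjusted p 6.31e-05). Without the mismatched array the rise in Col-0 was 1.74. In leaves EXPA9 gave 7.88, 7.78 and 7.32 in Col-0 controls against 8.25 and 7.97, and 7.58, 7.97 and 7.55 in bam1 controls against 8.24, 8.34 and 8.00. The differences of 0.45 ± 0.19 and 0.50 ± 0.17 were above 0 but were not called (adjusted p 0.126 and 0.0631).

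EXPA15 gave 9.40, 9.55 and 9.51 in stomata of Col-0 controls and 10.51 and 10.29 under drought, and 9.35 and 9.30 in bam1 controls against 10.26 and 10.88. It rose by 1.25 ± 0.20 in stomata of bam1 (2.37-fold, adjusted p 0.00122). This call was lost without stomata bam1 drought replicate 2 (0.94) and with the slide as a fixed term (1.14). In stomata of Col-0 the difference of 0.91 ± 0.18 passed the test (adjusted p 0.00684) but was under 2-fold. Without the mismatched array 1 drought array is left there, the one at 10.51. No rise was called in leaves, with 9.53, 9.59 and 9.37 against 9.03 and 8.86 in Col-0 (-0.55 ± 0.18, adjusted p 0.0559) and 8.81, 8.58 and 8.65 against 8.79, 8.69 and 8.26 in bam1 (-0.10 ± 0.16, adjusted p 0.747).

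Single vascular markers moved in the stomata comparisons in which EXPA9, EXPA15 and EXLB1 had higher signals under drought. In stomata 2 of the 7, the sucrose exporters SWEET11 and SWEET12, rose under drought in Col-0 (1.18 and 1.95) and in bam1 (1.04 and 1.69), and XCP1 fell in bam1 (-1.12). The summed signal of the 7 was 71941 to 96523 in controls and 89216 to 110152 under drought in Col-0, which overlapped, and 60680 to 100441 against 108094 to 120243 in bam1, which did not. The median difference of the 7 was 0.2 in stomata of Col-0, with 5 above 0 and 2 below. In stomata of bam1 it was 0.03, with 4 above 0 and 3 below. In leaves, where EXLB1 also rose, 0 of the 7 were called higher in either genotype. The part of the vascular markers in these expansin differences was not tested.

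EXPB3 (AT4G28250), the other tested beta-expansin, had drought arrays above control arrays in stomata of both genotypes. The differences were 0.81 ± 0.17 in Col-0 (adjusted p 0.0101) and 0.93 ± 0.19 in bam1 (adjusted p 0.00575). Both passed the test but were under 2-fold.

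The 3 EXLA genes had their highest leaf signals in untreated bam1. EXLA1 (AT3G45970) gave 12.08, 12.16 and 11.90 in control leaves of bam1, 10.07, 10 and 10.14 in drought-stressed leaves of bam1, 9.81, 10.83 and 10.52 in control leaves of Col-0 and 10.18 and 9.89 in drought-stressed leaves of Col-0. The bam1 controls thus stood above the other 3 leaf groups, which overlapped each other. EXLA1 fell under drought by 1.98 ± 0.30 in leaves of bam1 (3.93-fold, adjusted p 6.11e-04) and had a difference of -0.35 ± 0.34 in Col-0 leaves (adjusted p 0.546).

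EXLA2 (AT4G38400), whose loss is known to alter the susceptibility of Arabidopsis to the fungus Botrytis cinerea, gave 9.83, 9.20 and 9.37 in control leaves of bam1 and 6.996, 6.92 and 7.20 under drought. Leaves of Col-0 gave 7.51, 7.81 and 7.77 in controls and 7.11 and 7.44 under drought. The bam1 controls again stood apart, by more than 1 log2 unit, and EXLA2 fell by 2.43 ± 0.20 in bam1 (5.38-fold, adjusted p 8.22e-06) against -0.42 ± 0.23 in Col-0 (adjusted p 0.242).

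EXLA3 (AT3G45960) gave 8.16, 8.25 and 8.18 in control leaves of bam1 and 6.09, 5.94 and 6.12 under drought, and 5.96, 7.24 and 6.68 in control leaves of Col-0 against 6.27 and 6.24. It fell by 2.15 ± 0.43 in bam1 (4.44-fold, adjusted p 0.00421) and differed by -0.37 ± 0.48 in Col-0 (adjusted p 0.667). On slide 6 the drought differences in bam1 leaves were -1.76, -2.17 and -2.06 for EXLA1, EXLA2 and EXLA3. A second probe of EXLA3 was called lower in this comparison alone (-1.41, adjusted p 0.0225). With the slide as a fixed term the falls of EXLA2 (-2.40) and EXLA3 (-2.22) were still called and that of EXLA1 (-1.71) was not. EXLA1 and EXLA3 are neighbours on chromosome 3 in the RefSeq annotation of TAIR10.1, and whether transcripts of one reach the probe of the other was not tested.

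In stomata of bam1 EXLA1 gave 10.01 and 10.72 in controls and 9.06 and 9.08 under drought, and EXLA3 gave 5.42 and 6.87 against 3.89 and 4.67. The fall was 1.29 ± 0.37 for EXLA1 (2.45-fold, adjusted p 0.0329) and 1.87 ± 0.53 for EXLA3 (3.65-fold, adjusted p 0.0318). Both calls were lost without stomata bam1 control replicate 2, whose BAM1 signal of 9.71 was the highest among the bam1 arrays (-0.94 and -1.14), and without stomata bam1 drought replicate 1 (-1.28 and -1.47), without stomata bam1 drought replicate 2 (-1.30 and -2.26), and with the slide as a fixed term (-1.29 and -1.80). Without stomata bam1 control replicate 1 the value of EXLA3 was -2.59. EXLA2 gave 8.06 and 8.37 against 7.47 and 7.25, a difference of -0.86 ± 0.25 that passed the test (adjusted p 0.0357) but was under 2-fold.

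Stomata of Col-0 gave 8.65, 9.84 and 8.71 for EXLA1 in controls and 8.92 and 9.28 under drought, 6.49, 7.23 and 7.09 against 7.71 and 7.46 for EXLA2, and 4.04, 5.79 and 4.52 against 3.94 and 3.58 for EXLA3. None of the 3 genes was called there, with differences of 0.04 ± 0.34, 0.65 ± 0.23 and -1.03 ± 0.48 (adjusted p 0.963, 0.0942 and 0.218). The EXLA3 probe was not well above background on either of these drought arrays.

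**Figure D3:**
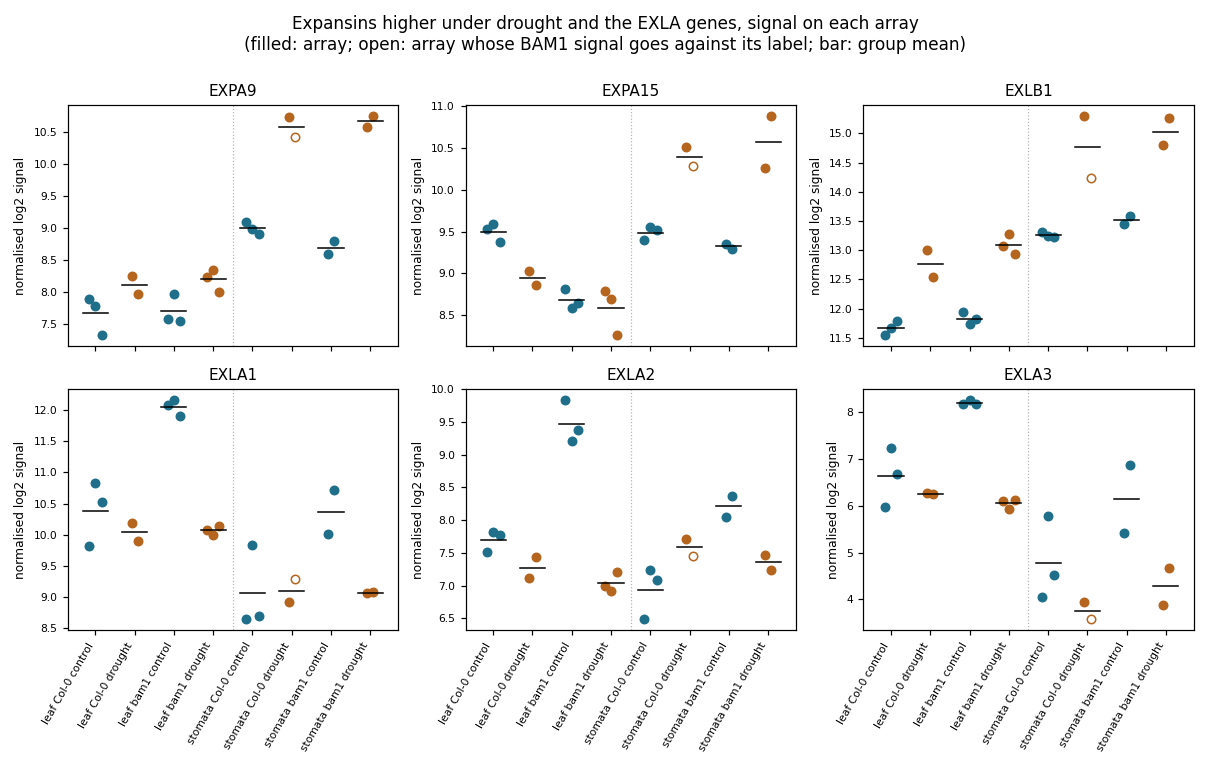
Normalised log2 signal (y axis) of EXPA9, EXPA15, EXLB1 and the 3 EXLA genes on each of the 20 arrays, by group (x axis). Points are arrays, bars are group means and the open point is the mismatched array; EXLA1 reads 11.90 to 12.16 in control leaves of bam1 and at most 10.83 in every other leaf group.

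The comparison of bam1 with Col-0 asked whether the family differed between the mutant line and the wild type. With 1 insertion line, the loss of BAM1 cannot be told apart from other differences of that line. In control leaves, 2 expansins were called higher in bam1, EXLA1 and EXLA2, beside 0.329% of all tested genes. EXLA1 was higher by 1.66 ± 0.30 (3.16-fold, adjusted p 0.0178) and EXLA2 by 1.77 ± 0.20 (3.41-fold, adjusted p 5.36e-04), while EXLA3 differed by 1.57 ± 0.43 (adjusted p 0.148) with groups that did not overlap. A second probe of EXLA1 was called higher too (2.17, adjusted p 0.00598). No slide held control leaves of both genotypes. With the slide as a fixed term, which leaves 7 residual degrees of freedom, neither gene was called (1.31 and 1.48), and with the slide as a random block both were. The call of EXLA1 was also lost without leaf Col-0 control replicate 1 (1.37) or 3 (1.73) and without leaf bam1 control replicate 1 (1.64) or 2 (1.61).

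In control leaves 10 of the 21 expansins had an unadjusted p under 0.05, beside 10.3% of all tested genes. EXPA16 gave 9.16, 9.05 and 8.83 in bam1 and 8.16, 8.26 and 7.45 in Col-0, which did not overlap but were not called (1.06 ± 0.35, adjusted p 0.279). Lower values in control leaves of bam1 were found for EXPA1 and EXPA15, both with a difference of -0.81 and with groups that did not overlap. That of EXPA15 passed the test (± 0.16, adjusted p 0.0309) but was under 2-fold, and that of EXPA1 did not (± 0.19, adjusted p 0.0751). No expansin was called between genotypes in drought-stressed leaves, control stomata or drought-stressed stomata, beside 0.298%, 0.0575% and 0.0261% of all tested genes. At an unadjusted p under 0.05 there were 2, 3 and 2 expansins of 21 in limma's test, beside 19.5%, 8.22% and 4.10% of all tested genes, and the methods' t-test at its own unadjusted limit called 1 expansin in control stomata and 0 in the other 2 comparisons. In control stomata the EXLA genes differed by 1.30 ± 0.34, 1.28 ± 0.23 and 1.36 ± 0.48 (adjusted p 0.214, 0.0604 and 0.387), and EXLA2 was called there without stomata bam1 control replicate 1 (1.43) or leaf bam1 control replicate 1 (1.28).

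The difference between genotypes in the drought response was tested as an interaction. No expansin was called in leaves or stomata, beside 0.00523% and 0.0209% of all tested genes, and 7 and 5 of the 21 expansins had an unadjusted p under 0.05, beside 13.3% and 5.61% of all tested genes. In leaves the drought response of bam1 minus that of Col-0 was -1.63 ± 0.45 for EXLA1, -2.01 ± 0.30 for EXLA2 and -1.78 ± 0.65 for EXLA3 (adjusted p 0.234, 0.0702 and 0.321). EXLA2 was called under 75th percentile scaling, with normexp background correction, with probes well above background on all arrays and with the mean of a gene's probes, and also without stomata Col-0 control replicate 1 (adjusted p 0.0236) or leaf bam1 control replicate 1 (adjusted p 0.0396), with adjusted p between 0.0236 and 0.22 over all alternatives.

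The difference between tissues in the drought response was called for 4 expansins in Col-0, all in the direction of a higher value in stomata, beside 1.23% of all tested genes called in that direction. The median over the 21 expansins was 0.83, against 0.07 over all tested genes. The drought response of stomata minus that of leaves was 2.03 ± 0.32 for EXPA8 (adjusted p 0.0107) and 1.56 ± 0.35 for EXPA3 (adjusted p 0.0381), which fell in leaves, and 1.46 ± 0.26 for EXPA15 (adjusted p 0.0144) and 1.13 ± 0.26 for EXPA9 (adjusted p 0.0433), of which EXPA9 rose in stomata. Without the mismatched array the values were 1.77, 1.25, 1.57 and 1.29, and EXPA3 was no longer called. Neither the other 2 probes of EXPA8 (1.60 and 2.11, adjusted p 0.0666 and 0.0997) nor the second probe of EXPA3 (1.40, adjusted p 0.0911) were called for this difference.

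With the slide as a fixed term none of the 4 was called (1.93, 1.88, 1.20 and 1.17 in the same order), and with it as a random block all 4 were. EXPA15 was not called without leaf Col-0 drought replicate 2 (1.38). EXPA3 was not called without any 1 of 9 arrays, which were the 3 leaf Col-0 control arrays, both leaf Col-0 drought arrays, stomata Col-0 control replicates 1 and 2, the mismatched array and leaf bam1 drought replicate 3 (range over all arrays left out in turn 1.25 to 1.86). For EXPA9 there were 13 such arrays, namely leaf Col-0 control replicates 1 and 2, both leaf Col-0 drought arrays, all 3 stomata Col-0 control arrays, stomata Col-0 drought replicate 1, all 3 leaf bam1 drought arrays and both stomata bam1 drought arrays (range 0.98 to 1.30). In bam1 no expansin was called for a difference between tissues, beside 0.0784% of all tested genes, and 6 of the 21 had an unadjusted p under 0.05, beside 10.3% of all tested genes. There EXPA9 gave 1.47 ± 0.26 (adjusted p 0.0688), EXPA15 1.35 ± 0.26 (adjusted p 0.0858), EXPA3 0.95 ± 0.35 (adjusted p 0.388) and EXPA8 0.36 ± 0.32 (adjusted p 0.817). EXPA9 was called without leaf Col-0 control replicate 3 (1.47) or stomata bam1 control replicate 1 (1.37), and EXPA15 without stomata bam1 drought replicate 1 (1.66) or stomata bam1 control replicate 1 (1.38).

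Expansins also differed between the tissues in untreated plants. These comparisons use the same control arrays as the drought comparisons, so the values are not independent of each other. In Col-0, 6 expansins were called higher in stomata (EXPA9, EXPA14, EXPA16, EXPA20, EXPB3 and EXLB1), beside 12.2% of all tested genes, and 4 were called lower (EXPA3, EXPA11, EXLA1 and EXLA3), beside 8.33%. In bam1, 5 were called higher (EXPA1, EXPA14, EXPA16, EXPB3 and EXLB1), beside 11.6%, and 4 lower (EXPA3, EXLA1, EXLA2 and EXLA3), beside 6.84%. The vascular markers SUC2 (1.92 and 1.89) and APL (2.59 and 2.69) and the trichome marker GL2 (2.23 and 2.11) were higher in stomata of Col-0 and bam1, and XCP1 (-1.53 and -1.47) and SWEET12 (-1.94 and -1.95) were lower. The summed signal of the 7 vascular markers was 29516 to 34118 in leaves and 71941 to 96523 in stomata of Col-0. The median of their differences was -0.54 in both genotypes, with 5 of the 7 below 0 in Col-0 and 4 in bam1. Their part in the expansin differences between tissues was not tested. The median difference of the 21 expansins was -0.04 in Col-0 and 0.35 in bam1, against 0.04 and 0.09 over all tested genes.

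EXPA16 (AT3G55500) had the highest tissue difference among the 21. It gave 8.16, 8.26 and 7.45 in control leaves of Col-0 and 11.63, 11.002 and 11.75 in stomata, and 9.16, 9.05 and 8.83 against 12.22 and 10.83 in bam1. All stomata arrays lay above all leaf arrays, and the difference was 3.51 ± 0.35 in Col-0 (11.4-fold, adjusted p 1.56e-06) and 2.51 ± 0.39 in bam1 (5.69-fold, adjusted p 1.33e-04). In bam1 it was 1.81 without stomata bam1 control replicate 1 and 3.21 without stomata bam1 control replicate 2, both called. Under drought EXPA16 had differences of -0.61 to -1.18 in the 4 comparisons, without being called (adjusted p 0.0579 to 0.327). It was called lower in leaves of bam1 with probes well above background on all arrays, with only the groups compared, with the replicate block and in the methods' t-test (-1.05 each), with the mean of its probes (-1.15), and without any 1 of 4 stomata arrays, namely both bam1 controls and both Col-0 drought arrays. In stomata of bam1 it was called lower with normexp (-1.13) and without stomata bam1 control replicate 2 (-1.88).

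EXPA14 (AT5G56320) was not well above background on any leaf array and was so on 9 arrays of stomata. Its signals were 7.50, 7.08 and 6.70 in stomata of Col-0 controls and 6.57 and 6.51 in those of bam1. It entered the test through the stomata groups alone, so that it had to differ between the tissues, and without it 5 expansins in Col-0 and 4 in bam1 were called higher in stomata. As a description, it was at least 4.70-fold higher in stomata than in leaves of Col-0 and at least 3.76-fold higher in bam1, the leaf signal being raised on each array to the lowest signal well above background where it was under that.

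EXPB3 was higher in stomata by 1.22 ± 0.15 in Col-0 (2.33-fold, adjusted p 1.45e-05) and by 1.54 ± 0.17 in bam1 (2.90-fold, adjusted p 9.35e-06), and EXLB1 by 1.59 ± 0.22 (3.02-fold, adjusted p 2.65e-05) and 1.68 ± 0.24 (3.21-fold, adjusted p 7.29e-05). The second probe of EXLB1 was not called between tissues (0.69 and 0.83). EXPA9 was higher by 1.33 ± 0.17 in Col-0 (adjusted p 1.31e-05) and by 0.99 ± 0.19 in bam1 (adjusted p 6.11e-04), the latter just under 2-fold. EXPA20 was higher by 1.17 ± 0.14 in Col-0 (adjusted p 6.64e-06) and by 0.91 ± 0.15 in bam1, again under 2-fold (adjusted p 2.53e-04). EXPA1 passed 2-fold in bam1 alone (1.04 ± 0.21, adjusted p 0.00115, against 0.50 ± 0.19 in Col-0, adjusted p 0.0396), and without leaf bam1 control replicate 1 it was 0.99. The difference between the genotypes in these tissue differences was not tested.

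Among the genes lower in stomata, EXPA11 differed by -1.60 ± 0.15 in Col-0 (3.03-fold, adjusted p 9.92e-07) and by -0.93 ± 0.17 in bam1 (adjusted p 4.71e-04, under 2-fold). EXPA3 differed by -1.72 ± 0.22 and -1.32 ± 0.25 (adjusted p 1.74e-05 and 6.31e-04). EXLA1 differed by -1.32 ± 0.30 in Col-0 and -1.68 ± 0.34 in bam1 and EXLA3 by -1.85 ± 0.43 and -2.05 ± 0.48 (adjusted p 9.98e-04 to 0.00311 over the 4 values). EXLA1 overlapped between leaf and stomata controls of Col-0, through 1 stomata array at 9.84. In bam1 the call of EXLA1 was lost with the slide as a fixed term (-1.34), and that of EXLA3 without stomata bam1 control replicate 1 (-1.33), whereas EXLA3 was at -2.78 without stomata bam1 control replicate 2. On slide 1, which held a leaf and a stomata control of Col-0, the differences were -1.64 for EXPA11, -1.85 for EXPA3, -1.17 for EXLA1, -1.92 for EXLA3, 1.77 for EXLB1 and 1.21 for EXPA9.

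Probes of 1 gene did not always give the same tissue difference. The bright probe of EXPA5 differed by -0.27 ± 0.15 in Col-0 and by -0.30 ± 0.17 in bam1 and was not called, whereas a dimmer probe of the gene was called lower in stomata (-1.64 and -1.18). For EXPA8 the brightest probe differed by -0.82 ± 0.20 in Col-0 and by -0.19 ± 0.22 in bam1, and the dimmest of its 3 probes was called lower (-2.12 and -1.52). The second probe of EXLA3 had group means of 5.17 in leaves and 4.99 in stomata of Col-0 controls. In bam1 controls they were 6.01 and 5.06, and neither difference reached 2-fold. The main probe of EXLA3 was well above background on 2 of the 3 stomata arrays of Col-0 controls.

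**Figure D4:**
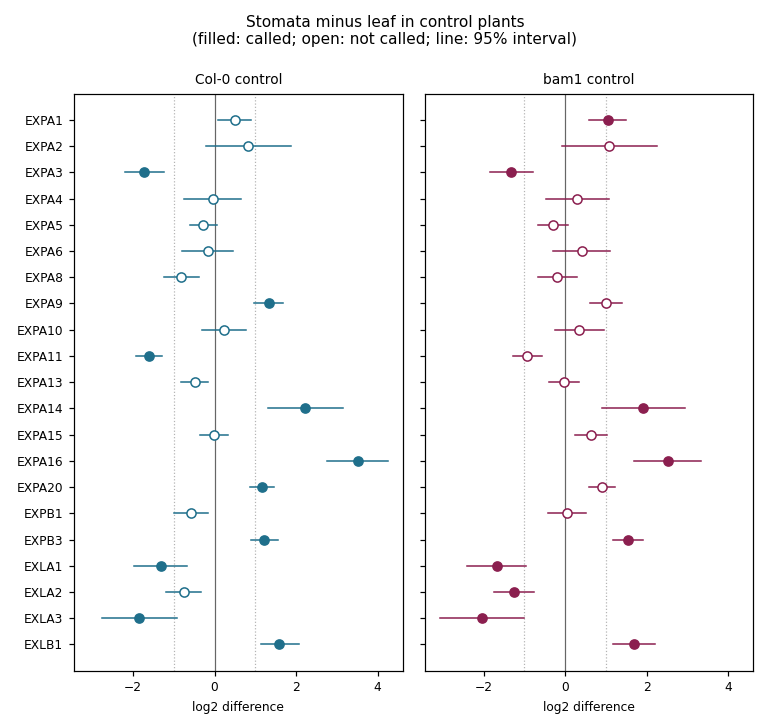
Log2 difference of stomata minus leaf (x axis) in control plants of Col-0 and bam1 for the 21 tested expansins (y axis). Points are the fitted differences, lines their 95% intervals, filled points are called genes and dotted lines mark 2-fold; EXPA16 lies farthest to the right at 3.51 and 2.51, and EXLA3 farthest to the left at -1.85 and -2.05.

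The remaining tested expansins were not called in any comparison of tissue, drought or genotype, other than EXPA20 between tissues. EXPA10 (AT1G26770), which is known to promote leaf growth, was lower under drought in leaves of Col-0 (-0.91 ± 0.28, adjusted p 0.0441) but under 2-fold, and differed by -0.80 and -0.86 in stomata of Col-0 and bam1 and by -0.07 in leaves of bam1, none of them called. A second, dimmer probe of EXPA10 differed by -2.42 ± 0.90 in stomata of bam1 and was not called either (adjusted p 0.0951). EXPA13 (AT3G03220) and EXPA20 (AT4G38210) stayed between -0.38 and 0.35 in the 4 drought comparisons. EXPA2 (AT5G05290) and EXPA4 (AT2G39700) were close to background, being well above it on 5 and 10 of the 20 arrays, and their group means ran from 2.50 to 5.17 and from 4.46 to 5.30.

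Of the 34 loci, 12 had probes but none that could be tested. These were EXPA7 and EXPA18, known from root hairs, EXPA12, EXPA17, known from lateral root formation, EXPA21, EXPA22, EXPA23, EXPA24, EXPA25, EXPA26, EXPB2 and EXPB4. Their probes were well above background on at most 2 of the 20 arrays, so a difference was not detectable here. EXPA21 to EXPA26 are neighbours on chromosome 5, and whether their probes share transcripts was not tested. EXPB5 had no matched probe.

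Other genes of wall growth were read from a list of 23 synthesis and remodelling genes, of which 22 were tested. Under drought 3, 4, 0 and 5 of them were called lower in leaves of Col-0, leaves of bam1, stomata of Col-0 and stomata of bam1, beside 3.77%, 3.87%, 1.71% and 3.34% of all tested genes, and 0 were called higher, with medians of -0.48, -0.19, -0.10 and -0.20. In stomata of Col-0, where 0 were called in either direction, 4 of 22 had an unadjusted p under 0.05 in limma's test, beside 24.9% of all tested genes. XTH4, a xyloglucan endotransglucosylase/hydrolase that rearranges the polymer on which expansins act, fell by 1.60, 1.84 and 2.69 in leaves of Col-0, leaves of bam1 and stomata of bam1 (adjusted p 0.00377, 6.6e-04 and 3.24e-04). Between genotypes, 2 of the 22 were called higher in control leaves of bam1 than of Col-0, beside 0.329% of all tested genes. In drought-stressed leaves 1 was called, beside 0.298%. XTH9, of the same family as XTH4, was higher in control leaves of bam1 (1.96, adjusted p 0.0309). It fell under drought in leaves and stomata of bam1 (-2.74 and -1.95, adjusted p 3.54e-04 and 0.0154).

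Of 12 transcription factors that act on expansin genes or cell expansion, 10 were tested. PRE1, a small helix-loop-helix protein that promotes cell elongation, fell under drought by 1.80, 1.41 and 1.15 in leaves of Col-0, leaves of bam1 and stomata of Col-0 (adjusted p 0.00186, 0.00474 and 0.0389). In stomata of Col-0 its drought signals were 10.59 and, on the mismatched array, 10.11. In stomata of bam1 PRE1 gave 11.27 and 11.32 in controls and 10.28 and 10.4 under drought, without overlap, and was not called. ATHB7, a homeodomain protein induced by abscisic acid that restrains growth, rose in all 4 drought comparisons, by 2.76, 2.31, 1.67 and 2.33 (adjusted p 3.33e-05, 4.67e-05, 0.00246 and 3.62e-04). ATHB12, its close relative, rose in Col-0 leaves (1.46, adjusted p 0.00432) and was called in no other drought comparison. In bam1 its drought arrays lay above its controls in leaves (10.97 to 11.18 against 9.92 to 10.75). The same held in stomata of bam1 (11.93 and 12.35 against 10.96 and 11.44), while in stomata of Col-0 the groups overlapped. Drought-stressed leaves of Col-0 gave 13.01 and 12.66, above all those of bam1. The other 7 tested factors were not called under drought.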

How the data were processed

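RNA of 20 samples had been hybridised to one-colour Agilent arrays. The deposited scanner files hold intensity values per spot, background-subtracted and detrended by Feature Extraction, version 11.5.1.1 per the file headers. The deposited series matrix holds log2 values that the authors had quantile-normalised in GeneSpring and from which they had subtracted each probe's median. Other columns, deposited with the same files, are flags for saturated, outlying and well-above-background spots.

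Spots marked as outliers were left out. Processed signals were log2-transformed and quantile-normalised over the 20 arrays, and 30665 of 43603 probes were tested. Probes were matched by transcript accession to loci of RefSeq (TAIR10.1), with a match for 34348 (78.8%). Sequences were not used here. One mean per group was fitted in limma 3.58.1 (R 4.3.3) with eBayes, with 12 residual and 2.43 prior degrees of freedom, and Benjamini-Hochberg adjustment over all tested probes. A gene not well above background on any array of a group has a lower bound of its fold, against the lowest signal well above background on each array of that group. Groups came from titles and characteristics. The fit was tested on simulated data.

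Values per array are given for each expansin called in a drought, genotype or interaction comparison and for the 5 brightest probes. Of the other expansins, EXPA14 and EXPA16 are also given so, chosen after their values were seen. That this family and these lists would be described was decided with earlier results of these data known; the members and lists are thus not independent of them. Alternatives were 75th percentile scaling, normexp (offset 50, on median spot and background signals), no or a stricter filter, only the groups compared, slide, replicate block, the authors' values, the methods' t-test (equal variances), the mean of a gene's probes and each array left out. The slide as a random block was added after the data were seen. Array precision is limited by 2 to 3 arrays per group. Python 3.11.15 with matplotlib 3.10.9 drew the plots.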

Additional observations from a re-analysis of the deposited data

Results flagged for a closer look

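The drought response of 4 expansins differed between stomata and leaves of Col-0 in a test of the difference itself. The response of stomata minus that of leaves was 2.03 for EXPA8, 1.56 for EXPA3, 1.46 for EXPA15 and 1.13 for EXPA9 on the log2 scale, with adjusted p of 0.0107, 0.0381, 0.0144 and 0.0433 in limma. In bam1 the same differences were 0.36, 0.95, 1.35 and 1.47 and were not called. The Col-0 values rest on 2 drought arrays per tissue, of which 1 stomata array goes against its label by its BAM1 signal. None of the 4 was called with the slide as a fixed term, EXPA9 lost its call without any 1 of 13 arrays, EXPA3 without any 1 of 9 and EXPA15 without leaf Col-0 drought replicate 2.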

How the results depend on the processing

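Of the 49 calls made for expansins, 33 were kept without any 1 array, and over all alternatives 1419 of 1554 values kept their call, 135 lost it and 0 changed sign. Calls kept were 47 under 75th percentile scaling, 38 with normexp, 45 without a filter on dim probes, all 43 that could be tested with probes well above background on all arrays, 34 with only the groups compared, 32 with the slide as a fixed term, 48 with it as a random block (consensus correlation 0.084), 48 with a replicate block, 49 with the authors' processed values, 48 with the mean of a gene's probes, and 38 and 15 of 45 in the methods' t-test before and after adjustment. With the slide as a fixed term 11 of 14 drought calls in leaves, 3 of 10 in stomata, 18 of 19 between tissues and 0 of 6 others were kept, at 7 residual degrees of freedom.

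Counts of called expansins that moved by more than 1.5 times were as follows. For drought in leaves of Col-0 (6) the adjusted t-test gave 0, and in leaves of bam1 (8) the slide as a fixed term gave 5. For drought in stomata of Col-0 (3) the groups compared alone gave 1 and the adjusted t-test 0. For drought in stomata of bam1 (7) these gave 0 and 0, the slide 1 and the unadjusted t-test 3. Between tissues normexp gave 6 in Col-0 (10), and the adjusted t-test 2 in bam1 (9). Between genotypes in control leaves (2) the groups compared alone, the slide and the adjusted t-test gave 0 and the unadjusted t-test 4, and in control stomata (0) the stricter filter and the unadjusted t-test gave 1 each. For genotype by drought in leaves (0), 75th percentile scaling, normexp, the stricter filter and the mean of probes gave 1 each. For tissue by drought in Col-0 (4), no filter gave 2, the groups compared alone 1 and the slide 0, and in bam1 (0) normexp and the replicate block gave 1 each. The replicate block changed no other count by that much. Deviations from the group mean correlated at -0.27 to 0.24 between samples with the same replicate number (62 pairs). With different numbers they correlated at -0.24 to 0.27 (112 pairs). Pairing by number was thus not seen, but deviations from means of 2 to 3 arrays cannot exclude it.

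With each array left out in turn the counts were 4 to 7 for drought in leaves of Col-0, 7 to 9 in leaves of bam1, 1 (without drought replicate 1) to 6 (without the mismatched array) in stomata of Col-0, and 3 (without drought replicate 2) to 10 (without control replicate 1) in stomata of bam1. They were 10 and 9 to 11 between tissues in Col-0 and bam1. Between genotypes they were 1 to 2 in control leaves, 0 to 1 in control stomata and 0 under drought. They were 0 to 1 for genotype by drought in leaves and 0 in stomata, and 1 to 4 and 0 to 2 for tissue by drought in Col-0 and bam1. Leaving out an array from a group of 2 leaves 1 array in it. The lowest and highest counts for drought in stomata all rest on such a group. Dim probes limit EXPA2, EXPA4, EXPA14 and EXLA3.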

Other observations

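EXPA2, a dim alpha-expansin known from germinating seeds, gave log2 signals of 2.40 to 3.73 on the 11 leaf arrays, none of them well above background. In stomata of Col-0 it gave 3.82, 3.65 and 3.83 in controls, of which 1 was well above background, and 5.97 and 4.38 under drought, both well above background. In stomata of bam1 it gave 4.73 and 2.44 in controls and 4.92 and 4.31 under drought, of which 1 in each group was well above background. The gene met the limit for testing only through drought-stressed stomata of Col-0, where its signal was highest, so these values are a description and no difference is read from them.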
